A study of Mus musculus with 7 samples.

Results

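The fast troponin genes *Tnni2* and *Tnnt3* share a stretch of mouse chromosome 7 with the imprinted genes *H19* and *Igf2*, and this stretch was described from the peaks of BMAL1, REV-ERBα and RNA polymerase II (RNAP2) in gastrocnemius muscle. All peaks of the 6 deposited lists were taken over 250 kb of the mm10 (GRCm38) genome, from 4850 bp before *Syt8* to 13184 bp past the 5′ end of *Igf2*. This gave 156 of 527912 peaks, and they were assigned to *Tnni2*, *Lsp1*, *Tnnt3*, *Mrpl23*, *H19*, *Igf2* and the other transcripts of this window. The annotation (GENCODE M21) places 17 genes there, of which 13 are coding or long noncoding genes. The window was chosen by its measured peaks (their −log10 p, width and overlap between lists), so its values are a description, and no test was made on them. Each list comes from 1 sample of gastrocnemius, a calf muscle, of wild-type C57BL/6J males aged 5 months on standard chow under a light:dark cycle. BMAL1 and RNAP2 were mapped at zeitgeber time (ZT) 4, counted in hours from lights on, and REV-ERBα at ZT 8 with a mix of antibodies, with 2 replicates for each of the 3 factors. No group differs from another by genotype or treatment, and all 3 factors were read in whole muscle, which holds several cell types. Factor and time of day cannot be told apart for REV-ERBα against the others. The labels give 1 input sample, also of ZT 4, while the paper lists 2 input libraries. Lists of different factors may share a control. ChIP-seq recovers both parental alleles together, and no peak could be assigned to the maternal or the paternal chromosome.

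BMAL1 activates transcription in the daily clock, with its partner CLOCK, from E-boxes (the letters CACGTG), and REV-ERBα is a repressor of the same clock that binds response elements built on AGGTCA. RNAP2 peaks mark where the polymerase sits on genes. *Tnni2* and *Tnnt3* encode the inhibitory and the tropomyosin-binding troponin subunits of fast muscle fibres. *H19* is a noncoding RNA made from the maternal copy and *Igf2* a growth factor made from the paternal copy, and a methylated control region between them keeps them on opposite copies. *Nctc1* is a noncoding transcript between *Mrpl23* and *H19*, and an enhancer that serves *H19* and *Igf2* in skeletal muscle has been placed within it.

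Sequences at chosen summits, E-boxes and a promoter are printed here from the GRCm38 genome, plus strand unless stated, in lower case. Capitals mark the E-box CACGTG, the form CAGCTG that myogenic factors use, the element AGGTCA and the MEF2 consensus, searched on both strands, and no printed matches overlap each other. The first sequence is chr7:142550819-142551118, the 300 bases around the REV-ERBα summits in an intron of *Nctc1*, which also hold the summit of RNAP2 replicate 1 and lie next to that of BMAL1 replicate 1. The strongest BMAL1 summit of the window, that of replicate 2 at 142550166, lies outside it, as does that of RNAP2 replicate 2 at 142550037.
Nctc1 intron: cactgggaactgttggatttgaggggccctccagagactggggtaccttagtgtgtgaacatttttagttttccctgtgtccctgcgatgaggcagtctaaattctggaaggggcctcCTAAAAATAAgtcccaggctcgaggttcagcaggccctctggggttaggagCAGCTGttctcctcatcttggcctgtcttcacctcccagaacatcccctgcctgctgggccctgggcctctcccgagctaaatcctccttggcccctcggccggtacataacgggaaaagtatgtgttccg
It holds a MEF2 match at base 119 and CAGCTG at base 170, and no CACGTG or AGGTCA. The next sequences are the 60 bases around each CACGTG of the same merged site, at chr7:142547114-142547173 and chr7:142551800-142551859, shown because the E-box is the BMAL1 motif.
Nctc1 E-box 1: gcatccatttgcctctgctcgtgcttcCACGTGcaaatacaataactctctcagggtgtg
Nctc1 E-box 2: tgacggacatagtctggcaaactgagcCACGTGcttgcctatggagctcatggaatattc
The fourth is chr7:142516821-142517120, the 300 bases past the 3′ end of *Tnnt3* that hold the 2 BMAL1 summits of the second strongest BMAL1 region of the window.
Tnnt3 3′ flank: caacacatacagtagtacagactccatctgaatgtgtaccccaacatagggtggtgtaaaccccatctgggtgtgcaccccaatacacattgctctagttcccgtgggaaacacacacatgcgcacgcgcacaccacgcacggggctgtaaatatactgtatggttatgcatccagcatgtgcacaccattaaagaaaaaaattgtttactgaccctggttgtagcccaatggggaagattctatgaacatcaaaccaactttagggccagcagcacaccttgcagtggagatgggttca
None of the 4 motifs is in it. The last is the RefSeq promoter of *Nctc1* (GRCm38.p6, minus strand, chr7:142558549-142558848, 250 bases before the start and 50 after), over which both RNAP2 lists have a peak.
Nctc1 promoter: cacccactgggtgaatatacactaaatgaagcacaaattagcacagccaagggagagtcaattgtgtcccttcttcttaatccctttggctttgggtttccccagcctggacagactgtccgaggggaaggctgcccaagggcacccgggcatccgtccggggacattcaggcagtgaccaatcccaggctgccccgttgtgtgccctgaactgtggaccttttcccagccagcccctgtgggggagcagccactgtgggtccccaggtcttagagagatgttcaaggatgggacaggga
It holds none of the 4 motifs either. Among 32851 RefSeq promoters of this length, 7.15% hold CACGTG, 16.3% CAGCTG, 16.3% AGGTCA and 3.19% the MEF2 consensus. Among 1263 REV-ERBα regions, 5.70% hold the MEF2 consensus and 17.5% CAGCTG within the 300 bases around the strongest summit. Among 2742 BMAL1 regions, 3.14% hold CACGTG there. RefSeq promoters were at hand for 6 of the 17 genes (*Syt8*, *Prr33*, *Mrpl23*, *Nctc1*, *Gm33148* and *Igf2*).

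The strongest peaks of BMAL1 and REV-ERBα in the window lay within *Nctc1* (chr7:142544609-142558596, minus strand), not at *Tnni2*, *Tnnt3*, *H19* or *Igf2*. Peaks are given by the −log10 p at the summit, where a larger value is a stronger peak. Replicate 1 of BMAL1 reached 8.95 at its strongest peak over *Nctc1*, and replicate 2 reached 18.4, at 4.45-fold and 7.50-fold enrichment over input. It was the 42nd strongest of 34737 peaks in replicate 1 and the 5th of 177669 in replicate 2. For REV-ERBα the −log10 p was 24.7 and 37.2, at 7.67-fold and 10.2-fold, and these peaks ranked 59th of 28881 and 30th of 29934. RNAP2 had 51.8 and 19.4 there, at 14.8-fold and 8.02-fold. The REV-ERBα values were thus both above the BMAL1 values, while RNAP2 was above REV-ERBα in its first replicate and below it in its second, and values of different lists depend on each antibody and library.

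The peaks over *Nctc1* were wide. REV-ERBα formed 1 region of 11838 bp (chr7:142543225-142555062), the 7th widest of 1263, from 1 peak of 10757 bp in replicate 1 and 1 of 11393 bp in replicate 2. BMAL1 formed a region of 7031 bp (chr7:142545867-142552897), the 2nd widest of 2742, from 2 peaks in each replicate. RNAP2 covered 16436 bp (chr7:142543073-142559508), the 3rd widest of 10752 regions, and reached past both ends of the gene. REV-ERBα peaks covered 73.9% and 89.1% of the gene's length, RNAP2 98.5% and 93.5%, and BMAL1 48.9% and 48.6%. Within these peaks, the strongest summits of BMAL1 and REV-ERBα spread over 862 bp, and with RNAP2 over 1073 bp, all in the long intron. From the start of *Nctc1* the summits lay 7803 and 8430 bp downstream for BMAL1, 7568 and 7688 bp for REV-ERBα, and 7486 and 8559 bp for RNAP2. RNAP2 also had summits at the start itself, with a −log10 p of 26.0 at 170 bp in replicate 1 and 11.9 at 24 bp in replicate 2. Both were weaker than the intron summits of the same lists. Neither BMAL1 nor REV-ERBα had a region in both replicates within 1000 bp of that start, and the peaks that reached into this stretch were 1 of 3.75 in REV-ERBα replicate 2 and 1 of 1.87 in BMAL1 replicate 2.

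**Figure D1:**
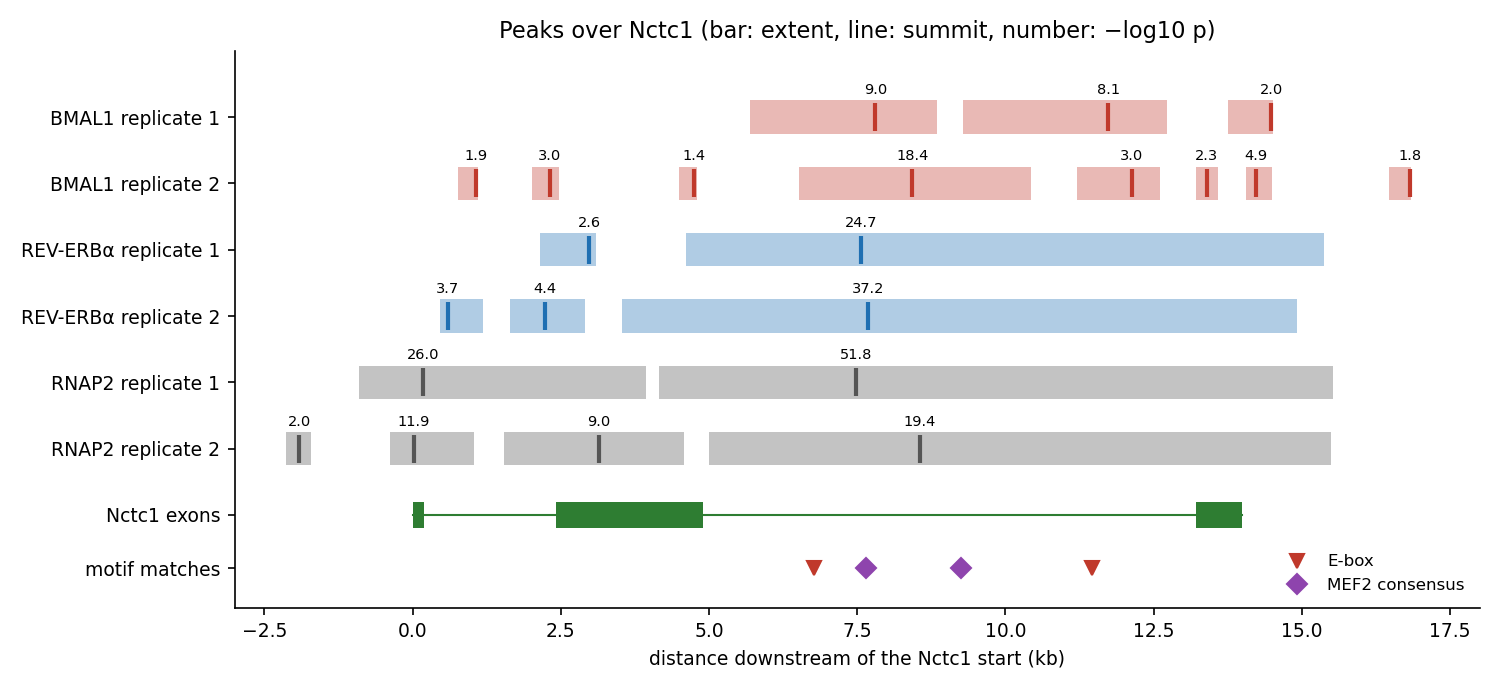
Peaks over *Nctc1* in the 6 lists against the distance downstream of its start in kb, with the exons and the E-box and MEF2 matches below; each bar is a peak, its line the summit and its number the −log10 p. The strongest peaks of all 6 lists meet in the long intron between 7486 and 8559 bp, and RNAP2 alone has strong peaks at the start.

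The 2 E-boxes of the site were not under its summits. The first, at chr7:142547141-142547146, was 277 and 674 bp from the nearest BMAL1 summit, which belonged to weaker peaks of −log10 p 8.12 and 2.98, and 3887 and 3767 bp from the nearest REV-ERBα summit. The second, at chr7:142551827-142551832, was 1034 and 1661 bp from the nearest BMAL1 summit and 799 and 919 bp from the nearest REV-ERBα summit. Of the 2 MEF2 matches, that at chr7:142550937-142550946 was 91 and 29 bp from the REV-ERBα summits, 144 and 771 bp from the BMAL1 summits, and 173 and 900 bp from the RNAP2 summits. The other, at chr7:142549335-142549344, was 1693 and 1573 bp from the REV-ERBα summits, 1458 and 831 bp from the BMAL1 summits, and 1775 and 702 bp from the RNAP2 summits. The merged site of BMAL1 and REV-ERBα held 14 matches of CAGCTG, or 11.8 per 10 kb, against 6.20 per 10 kb of the whole window. For AGGTCA it held 9, or 7.60 per 10 kb, against 8.20 in the window. With 2 matches each, E-boxes and MEF2 consensus stood at 1.69 per 10 kb against 1.12 and 0.84 in the window. A match of letters shows neither a bound site nor a cause.

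Across the 3′ end of *Nctc1*, on the side of *Mrpl23*, BMAL1 had a separate region of 759 bp (chr7:142544090-142544848) with a −log10 p of 2.01 and 4.95. REV-ERBα and RNAP2 had no separate peak there, since their wide peaks covered it. A last REV-ERBα region of 1461 bp (chr7:142555496-142556956) had 2.57 and 4.35, and only the second BMAL1 list had a peak in it, of 2.98.

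*Tnnt3* (chr7:142498836-142516009, plus strand) carried the strongest RNAP2 peak of the window and a chain of REV-ERBα regions, with weaker BMAL1 regions. RNAP2 reached a −log10 p of 60.9 and 32.9 near the start, at 21.2-fold and 12.3-fold enrichment, as the 54th of 87870 and the 74th of 168821 peaks. Its summits lay 87 and 30 bp downstream of the annotated 5′ end of the gene at 142498836. The region spanned 11419 bp (chr7:142498587-142510005), as 1 peak in replicate 1 and 3 peaks in replicate 2. RNAP2 peaks covered 94.2% of the gene in replicate 1 and 65.1% in replicate 2.

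REV-ERBα had 4 regions over *Tnnt3*, and their strength did not peak at the start. The region at the start (chr7:142498494-142501553) had a −log10 p of 6.77 and 7.99, with summits in the first part of the gene. It was followed by 1 of 1556 bp with 3.57 and 5.65 and by 1 of 4962 bp with 9.78 and 6.67. The last, of 8149 bp (chr7:142510467-142518615), ran from an intron past the 3′ end and had the highest values, 10.1 and 13.3. It was the 12th widest of all 1263 regions, and its summits lay past the gene. Together the REV-ERBα peaks covered 70.3% and 77.5% of *Tnnt3*.

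BMAL1 had 1 region inside *Tnnt3* and 1 just past it, and the outer was the stronger in both replicates. Inside, at chr7:142499725-142500538 in an intron, the −log10 p was 2.95 and 2.69, ranks 9596 of 34737 and 33198 of 177669. Past the 3′ end, at chr7:142516321-142517603, it was 6.95 and 4.58, ranks 74 and 685. The 2 BMAL1 summits of the outer region were 40 bp apart, and with those of REV-ERBα they spread over 237 bp, or 313 bp with RNAP2, which had 24.7 and 4.91 there. Inside *Tnnt3* the other peaks of the BMAL1 lists did not meet each other: replicate 1 had 2 more and replicate 2 had 6 more, the strongest of 4.25, which shares a site with replicate 1 only through a REV-ERBα region.

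*Tnni2* (chr7:142441808-142444410, plus strand), the fast troponin I gene at the left of the window, was covered whole by RNAP2 in both replicates. The RNAP2 region of 6854 bp (chr7:142440581-142447434) had a −log10 p of 51.0 and 22.6, with summits 66 bp apart at the start. REV-ERBα had a region over the start and the body with 6.52 and 5.60, and a second of 2113 bp past the 3′ end (chr7:142444982-142447094) with 8.33 and 6.34. In replicate 1 the value of 6.52 was from a peak in the body (chr7:142443175-142443730), and the peak at the start had 3.71. As at *Tnnt3*, the REV-ERBα values of the region past the end were above those of the region over the start in both replicates. BMAL1 had 1 region at the start (chr7:142441591-142442509) with 2.29 and 2.69. Past the end the strongest BMAL1 peaks had 4.21 and 4.25, but they did not overlap and gave no region. A MEF2 match lay in a *Tnni2* intron at chr7:142442197, 13 and 198 bp from the BMAL1 summits and 401 and 64 bp from the REV-ERBα summits, and no E-box lay in the *Tnni2* site.

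*Lsp1* (chr7:142460809-142494867), which encodes a leukocyte actin-binding protein, had its strong peaks only at its 3′ end, towards *Tnnt3*. RNAP2 had 4 regions over it. Near an inner start, at 319 bp from it, the −log10 p was 4.88 and 2.26, and in an intron 3.95 and 1.43. At the 3′ end it was 11.9 and 1.93, and then 40.0 and 14.4 in a region of 3503 bp (chr7:142494391-142497893) that lay mostly beyond the gene. That stretch is an intron of *Prr33* (chr7:142491074-142506771, minus strand), which the annotation used here types as noncoding. There BMAL1 had a region with 1.66 and 2.72, and REV-ERBα one with 7.69 and 2.54. *Prr33* overlaps *Lsp1* and the first part of *Tnnt3*, and a peak in that overlap cannot be assigned to one of them. *Syt8*, a synaptotagmin gene beside *Tnni2*, had peaks in BMAL1 replicate 2 (up to 3.60) and RNAP2 replicate 2 (1.99) and none in the other 4 lists.

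*Mrpl23*, *H19* and *Igf2* had no region in both replicates of any factor. At *Mrpl23* (chr7:142532686-142540747), a subunit of the mitochondrial ribosome, BMAL1 replicate 2 had 1.87, RNAP2 replicate 1 had 3.21 and RNAP2 replicate 2 had 1.97, and the 2 RNAP2 peaks did not overlap. At *H19* (chr7:142575529-142578143, minus strand) RNAP2 replicate 2 had 2 peaks of 1.99, RNAP2 replicate 1 had none, and neither BMAL1 list had one. REV-ERBα replicate 1 had a peak of 3.04 at chr7:142578633-142579084, 490 bp upstream of the gene, with an E-box 59 bp from its summit, and the nearest peak of REV-ERBα replicate 2 was 18402 bp from an *H19* start. Further upstream, where the control region lies, BMAL1 replicate 2 alone had peaks of 2.28 and 2.40, and no list of REV-ERBα or RNAP2 had a peak over them. *Igf2* (chr7:142650766-142666816, minus strand) had a single peak among the 6 lists, of 1.87 in BMAL1 replicate 2. The noncoding *Gm33148* between them had the only region past *Nctc1*, an RNAP2 region of 467 bp (chr7:142599269-142599735) with 4.79 and 2.60. At this depth of peak calling, a list without a peak does not show that the factor is absent.

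The window thus fell into a left stretch up to the *Nctc1* start and a right stretch beyond it. Over the 128597 bp on the left, the lists of BMAL1 had 12 and 26 peaks, those of REV-ERBα 14 and 13, and those of RNAP2 27 and 25. The average of each list over that length would be 1.69 and 8.63, 1.40 and 1.45, and 4.27 and 8.20. Over the 121404 bp on the right they had 2 and 9, 3 and 0, and 12 and 13, where the list averages would be 1.59 and 8.15, 1.32 and 1.37, and 4.03 and 7.74. The strongest peak on the right had a −log10 p of 2.98 for BMAL1, 4.14 for REV-ERBα and 6.98 for RNAP2. All 6 lists stood above their average on the left. On the right the RNAP2 lists and REV-ERBα replicate 1 were above it, the BMAL1 lists were near it, and REV-ERBα replicate 2 had no peak.

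**Figure D2:**
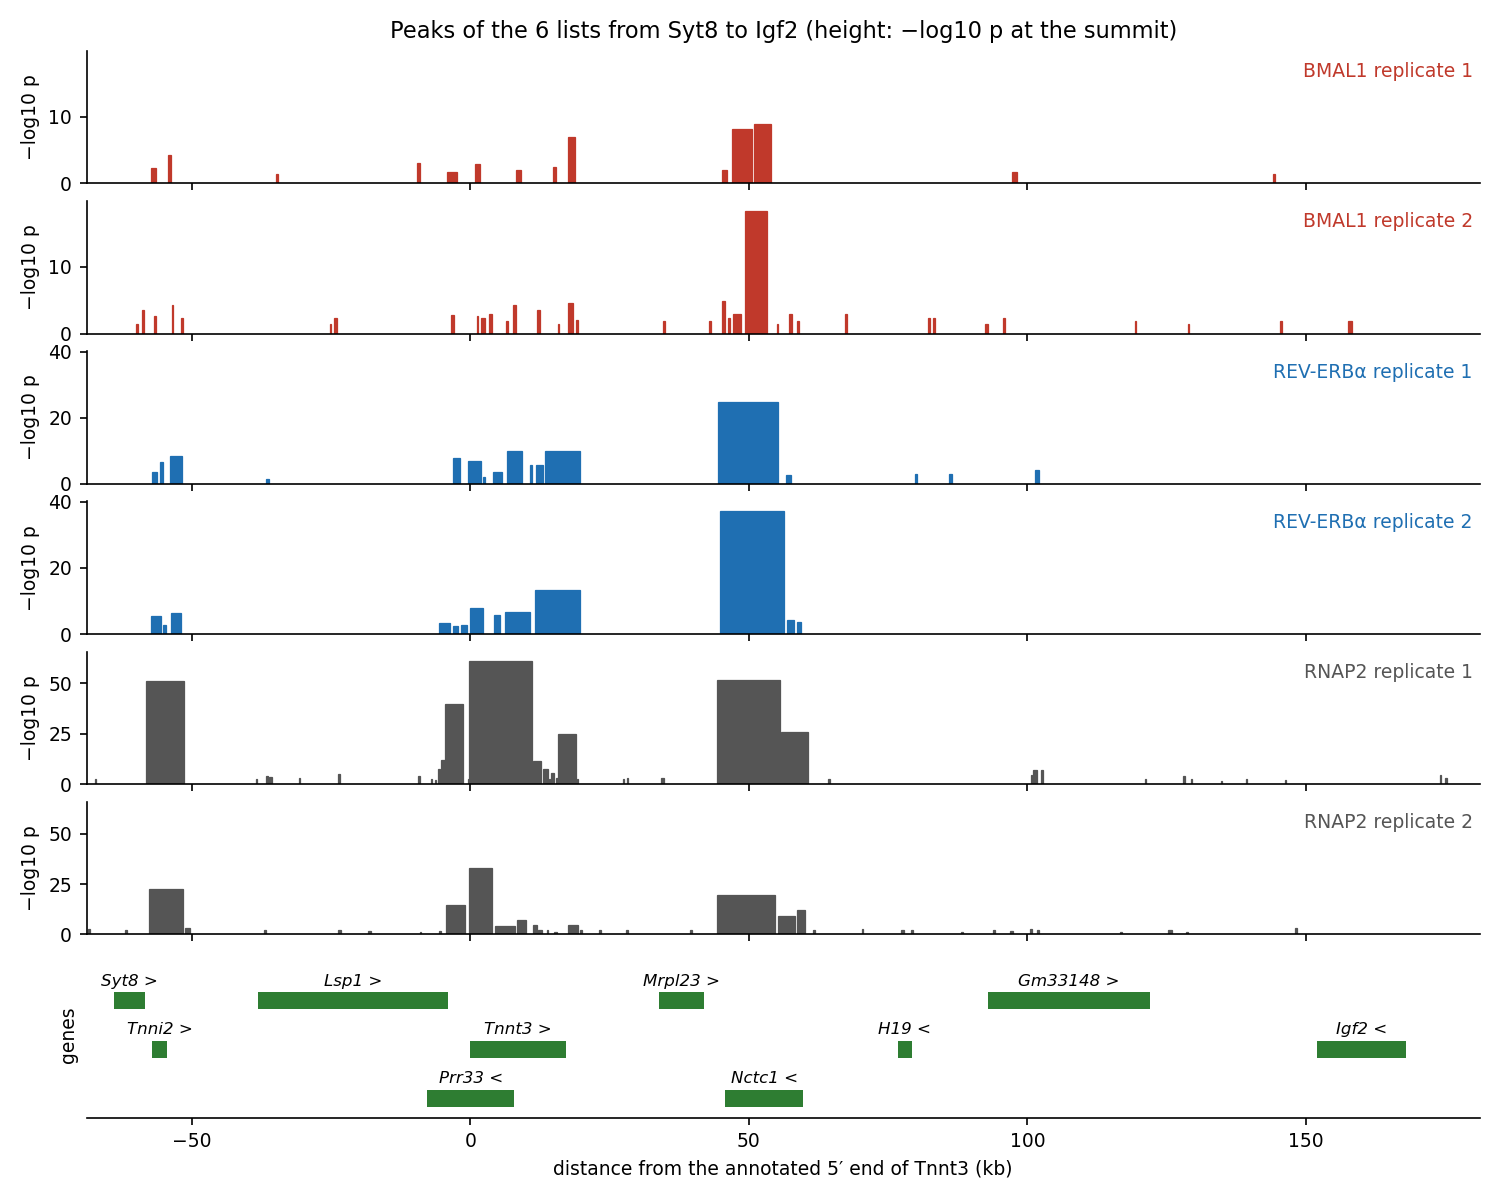
Peaks of the 6 lists over the window against the distance from the 5′ end of *Tnnt3* in kb; bars span each peak, their height is the −log10 p with 1 scale per factor, and the green bars are genes with their direction. The tall peaks stand over *Tnni2*, from the end of *Lsp1* to past *Tnnt3*, and over *Nctc1*, and those to the right of *Nctc1* reach at most 6.98.

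**Figure D3:**
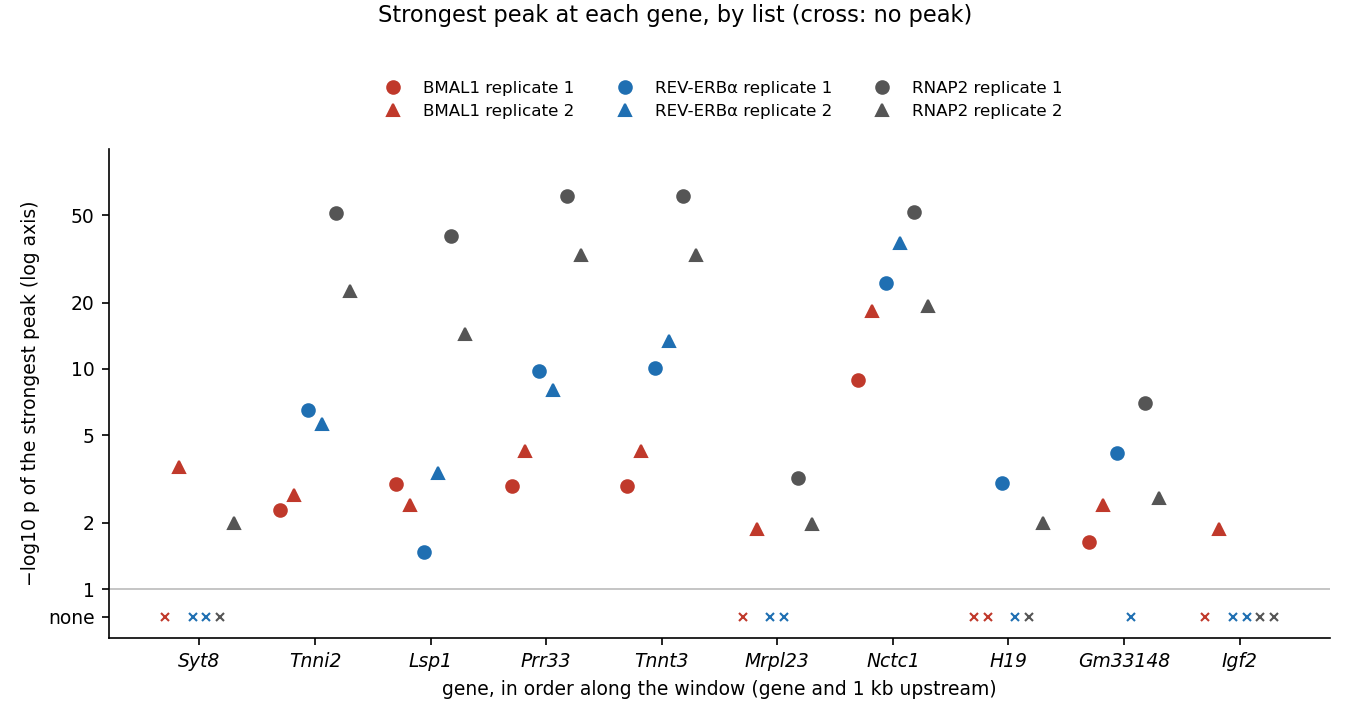
Strongest −log10 p over each gene and its 1 kb upstream, on a log axis, with 1 point per list and a cross where a list has no peak. *Nctc1* has the highest BMAL1 and REV-ERBα points (8.95, 18.4, 24.7 and 37.2), and *Igf2* has a point in 1 of 6 lists.

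Regions with a peak in both replicates numbered 6 for BMAL1, 9 for REV-ERBα and 13 for RNAP2, and 8 were shared sites, where 3 or all of the 4 lists of BMAL1 and REV-ERBα had a peak. Of the 13 coding and long noncoding genes, BMAL1 had a region over the gene or its 1 kb upstream at 5 (*Tnni2*, *Lsp1*, *Prr33*, *Tnnt3* and *Nctc1*), against 4.50% of such genes in the genome. REV-ERBα had one at 4 (*Tnni2*, *Prr33*, *Tnnt3* and *Nctc1*), against 2.84%, and RNAP2 at 6 (those of BMAL1 and *Gm33148*), against 28.6%. Since peaks chose the window, nothing is read from these counts against the genome. Neighbouring genes also share regions here. Among 10878 stretches of 250 kb that tile the genome, counting this one, 7 held at least 6 BMAL1 regions, 9 at least 9 REV-ERBα regions, 8 at least 13 RNAP2 regions and 8 at least 8 shared sites. A shared site was absent from 96.5% of them.

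Every BMAL1 and REV-ERBα region of the window overlapped an RNAP2 region, 6 of 6 and 9 of 9. Across the genome 4.38% of BMAL1 and 32.9% of REV-ERBα regions did. The regions of the window are wide, with a median of 1101 bp for BMAL1 and 2620 bp for REV-ERBα against 729 and 810 bp over all regions, and a wide region meets others more easily. Among regions at least as wide as the narrowest of the window, the share with RNAP2 was 7.04% for BMAL1 and 46.6% for REV-ERBα. Seen from RNAP2, all 5 RNAP2 regions of at least 3 kb in the window overlapped both factors, while across the genome 44.4% of 72 such regions overlapped BMAL1 and 76.4% overlapped REV-ERBα. Of the 8 shorter RNAP2 regions, 0 overlapped BMAL1 and 3 overlapped REV-ERBα. The share of such short regions over the genome was not counted, so no contrast of wide with short regions is read from this. The order of the levels was not the same. RNAP2 was highest at the *Tnnt3* start, while the nearest BMAL1 region, in an intron of that gene, had 2.95 and 2.69. The part of RNAP2 in the other peaks was not tested.

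The *Nctc1* site was compared with 3 other wide sites, chosen with their values known and each named by a gene within 100 kb. The sites named by *Ckm* and *Acta1* overlap these genes. The site named by *Slco4a1* lies 47401 bp from it and was not assigned to that gene. By the mean −log10 p of the 4 BMAL1 and REV-ERBα lists, 22.3 at *Nctc1*, it ranked 2nd of the 110 sites with a peak in all 4 lists. The site near *Slco4a1* ranked 1st (31.3). Those at *Ckm*, the muscle creatine kinase gene (16.6), and *Acta1*, the skeletal α-actin gene (13.3), ranked 6th and 10th. The sites ranked 3rd to 5th (18.3, 17.8 and 17.1) were narrow, at 1871, 1262 and 628 bp, and were not compared. By width the *Nctc1* site was 7th of 550 shared sites, with 11838 bp against 23641 bp near *Slco4a1*, 14996 bp at *Ckm* and 5796 bp at *Acta1*. Other wider sites, such as those of 27270 bp (mean 11.1) and 21742 bp (mean 10.1), were not compared. BMAL1 had 11.9 and 18.8 near *Slco4a1*, 5.07 and 13.4 at *Ckm*, and 7.45 and 4.95 at *Acta1*. The *Nctc1* values of 8.95 and 18.4 lay within this range. RNAP2 was lower at *Nctc1* (51.8 and 19.4) than at any of the other 3 in both replicates, where it had 124 and 48.1 near *Slco4a1*, 84.5 and 31.6 at *Ckm*, and 131 and 39.9 at *Acta1*. REV-ERBα at *Nctc1* was above *Ckm* (20.5 and 27.5) and *Acta1* (19.6 and 21.2) in both replicates. It was below the site near *Slco4a1* (48.6 and 45.9) in both. RNAP2 regions covered the whole *Nctc1* and *Ckm* sites, 99.6% of that at *Acta1* and 96.9% of that near *Slco4a1*.

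**Figure D4:**
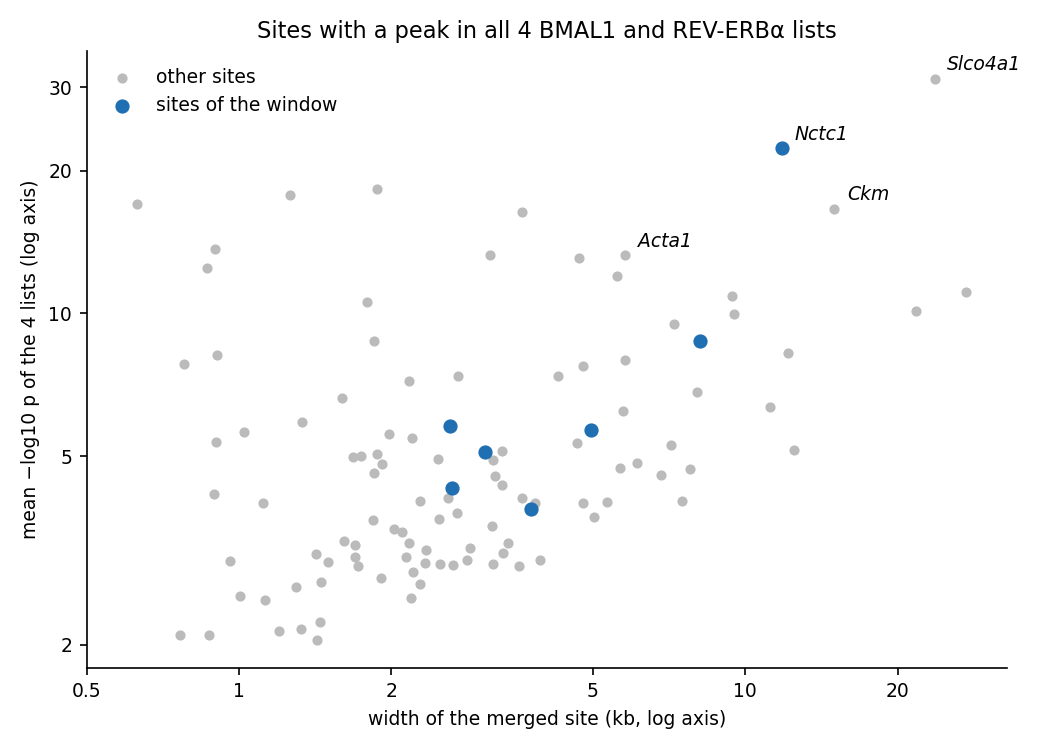
Mean −log10 p of the 4 BMAL1 and REV-ERBα lists against the width of the site in kb, both on log axes, for the 110 sites with a peak in all 4 lists; blue points are the sites of the window. *Nctc1* stands at 22.3 and 11838 bp, and the other blue points lie between 3.86 and 8.74. The label *Slco4a1* marks a site 47401 bp from that gene.

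The other troponin genes were counted in the same way. For these genes and the marker genes below, the values given are the strongest peak of each list at the gene. They need not belong to the same region. Of the 6 outside the window, REV-ERBα and RNAP2 had a region at *Tnnc2*, the fast troponin C gene, where REV-ERBα had 5.20 and 3.71 and RNAP2 had 60.9 and 30.6, and BMAL1 had a region at 0 of 6. The RNAP2 values at *Tnnc2* were above those at *Tnni2* in both replicates, and BMAL1 replicate 1 alone had a peak there, of 5.07. The slow and cardiac genes *Tnnc1*, *Tnni1*, *Tnni3*, *Tnnt1* and *Tnnt2* had no region of any factor. Of 26 further imprinted genes, of which *Ins2* reaches into the right edge of the window and had no region, RNAP2 had a region at 10, BMAL1 at 2 and REV-ERBα at 1, and none had a shared site. The BMAL1 genes were *Kcnq1* (4.72 and 3.60) and its antisense transcript *Kcnq1ot1* (4.72 and 2.98), which lie further along chromosome 7 and overlap, so 1 region can count for both. The REV-ERBα gene was *Gnas*, with 14.0 and 16.9, where RNAP2 had 26.0 and 7.74. Of 14 other genes of the IGF system, RNAP2 had a region at 5, REV-ERBα at 1 and BMAL1 at 0. The REV-ERBα gene was *Igfbp5*, which encodes an IGF-binding protein, with 3.02 and 2.64. The receptor gene *Igf1r* had 4 RNAP2 regions, and the strongest RNAP2 peaks at the gene had 5.65 and 3.72. The share of genes with a region over the genome, given above, is the measure for these counts.

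The labelled tissue was checked by RNAP2 regions at marker genes. RNAP2 had a region at 8 of 8 genes of fast muscle fibres, with −log10 p from 5.69 and 2.60 at *Myh1* to 131 and 39.9 at *Acta1*, and at 0 of 6 genes of slow fibres and heart. These lists include *Tnnc2* and the slow and cardiac troponin genes counted above, so those genes are not a separate result. RNAP2 had a region at 0 of 6 leukocyte, 0 of 2 adipocyte and 0 of 2 satellite cell genes. Over all coding and long noncoding genes the share was 28.6%, so these short lists do not show that a cell type is absent. A gene without a region can have peaks in both lists that do not overlap, as at *Ptprc* (4.71 and 3.97) and *Pax7* (3.21 and 2.60). An RNAP2 region was present at 1 of 3 endothelial genes (*Kdr*, 4.55 and 1.99) and 2 of 3 fibroblast genes (*Col1a1*, 16.0 and 5.52, and *Col1a2*, 5.56 and 5.52). BMAL1 and REV-ERBα each had a region at 6 of the 8 fast fibre genes and at 0 of these other marker genes. Their shares over all such genes were 4.50% and 2.84%.

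The motifs were also counted at the summits of the window, where the small numbers of regions allow no reading against the genome. Within 100 bp of the strongest summit, an E-box was found at 0 of 6 BMAL1, 0 of 9 REV-ERBα and 0 of 13 RNAP2 regions, against 2.55%, 3.40% and 4.70% over all regions. AGGTCA was at 1 of 9 REV-ERBα summits (13.1% over all) and the MEF2 consensus at 1 of 9 (4.28% over all), the latter at *Nctc1*. CAGCTG was at 1 of 9 REV-ERBα summits, where 12.7% of all have it, at 2 of 13 RNAP2 summits, where 11.3% have it, and at 0 of 6 BMAL1 summits, where 7.08% have it. The window holds 28 E-boxes, of which 4 lie in shared sites, and 155 matches of CAGCTG, of which 32 do. The shared sites cover 38480 of the 250001 bp.

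The lists differ in length and strength. They range from 28881 peaks (REV-ERBα replicate 1) to 177669 (BMAL1 replicate 2), and the reads at a peak are unknown, so no counting interval could be given. In the window, peaks with a −log10 q of 1.3 or more numbered 3 and 1 for BMAL1. REV-ERBα had 8 and 6 of them and RNAP2 had 16 and 8. The BMAL1 peaks were those in the *Nctc1* intron in both replicates and, in replicate 1, the *Tnnt3* 3′ flank. The *Nctc1* intron was thus the only BMAL1 region that met it in both lists. The first and last peaks inside the window had a −log10 p of 1.40 to 5.60, the highest being the REV-ERBα replicate 2 peak at *Tnni2*. The nearest outside had 2.15 to 3.97 and lay 543 to 522725 bp from the window. With 2 samples a factor, no exact two-sided test of 2 against 2 samples can go below p = 0.333.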

How the data were processed

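ChIP-seq peaks of BMAL1 (ZT 4), REV-ERBα (ZT 8) and RNAP2 (ZT 4) from gastrocnemius, 2 samples each, were used as deposited. The authors aligned reads to mm10 with BWA MEM, removed duplicates and reads of mapping quality under 24, down-sampled the replicates and called peaks on each sample with MACS2 2.1.1 against input at p 0.05. The −log10 p and −log10 q, and the fold enrichment (a ratio of signal to local background at the summit), are the authors' deposited MACS2 values. The deposited score was not used. Replicates were not pooled, the depth at a peak is unknown, and the input has no list here.

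Peaks overlapping by 1 bp were merged. A region needed a peak in both lists of a factor, a shared site in 3 of the 4 BMAL1 and REV-ERBα lists. A gene had a region over its body or 1 kb upstream (GENCODE M21). Motifs were sought within 100 bp of the strongest summit. The window, its genes and all lists were chosen with earlier results of these data known. Named genes were all those of the window, and those of the troponin, imprinted and IGF lists with a region, and 3 like sites. Samples of a factor are biological replicates by the study's methods. 1 marker list is not reported here. Merging was tested on simulated data. Alternatives were stricter thresholds, equal list sizes, an overlap of 50% of the shorter peak, other gene extents and motif distances, and each list left out. Python 3.11.15, pandas 2.3.3, pysam 0.24.0, samtools 1.23.1 and matplotlib 3.10.9 were used.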

Additional observations from a re-analysis of the deposited data

How the results depend on the processing

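The counts of the window depended on the peak threshold and on the list. With a −log10 p of at least 3, the regions fell to 2 for BMAL1 and 6 for RNAP2, the shared sites to 4 and the BMAL1 and REV-ERBα regions over RNAP2 to 9 (from 15), with REV-ERBα within 1.5 times of its count. With a −log10 q of at least 1.3, 1 BMAL1, 5 REV-ERBα and 5 RNAP2 regions, 2 shared sites and 6 regions over RNAP2 were left. Equal list sizes gave 3 BMAL1 and 6 RNAP2 regions. An overlap of 50% of the shorter peak moved no count by over 1.5 times. With 1 list left out, the other stands alone, which by construction gives more regions: without replicate 1 BMAL1 had 35 and without replicate 2 it had 14, and over all lists left out in turn the counts were 6 to 35 for BMAL1, 9 to 17 for REV-ERBα, 13 to 39 for RNAP2, 7 to 8 for shared sites and 15 to 29 for regions over RNAP2. All 3 factors kept a region at *Nctc1* in every alternative. Since strong peaks chose the window, and those of BMAL1 and REV-ERBα are strongest at *Nctc1*, this is no independent check of the site. BMAL1 lost its region at *Tnni2* and inside *Tnnt3* under both thresholds and at equal sizes, and REV-ERBα lost that at *Tnni2* under the −log10 q threshold. With both lists used, no alternative gave a region at *Mrpl23*, *H19* or *Igf2*, and single lists gave them 1, 2 and 1 at most. The genes with a region were the same with the gene body alone and with 5 kb upstream. Motif counts at the summits moved by at most 2 with 50 or 200 bp. No paired analysis was possible because no result comes from a test.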
